A study of Mus musculus with 6 samples.

Results

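The gene of cathepsin E, Ctse, was examined together with 9 other cathepsin genes in macrophages grown from mouse bone marrow, to ask whether its higher level in cells from Cd28 knockout mice is shared by the rest of the family. The members were taken by name (Ctse, Ctsa, Ctsb, Ctsc, Ctsd, Ctsh, Ctsk, Ctsl, Ctss and Ctsz) and found by Entrez number, and they are 10 of the 14574 genes listed in any library. Ctse was chosen by its measured difference in FPKM between the genotypes in these same libraries, so its values in the 2 genotypes are given as a description with no test of that difference. The other 9 were listed with those results known.

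The macrophages came from Cd28 KO mice and, as controls, from WT mice (C57BL/6J), with 3 libraries each. Donors of both genotypes were 6 to 10 weeks old. Marrow from their femurs was grown for 7 days in medium with 10% serum and 25 ng/ml human M-CSF, the growth factor that drives marrow cells into macrophages, renewed every 2 days and with no other treatment. The labels do not describe the Cd28 allele, the background of the knockout line, the sex of the donors or whether the libraries of a group came from separate animals, so p-values measure only the spread between these libraries.

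Cathepsins are proteases that cells make as inactive proenzymes and, for the most part, deliver to lysosomes, where an acid interior activates them. They fall into 3 unrelated chemical classes. Cathepsins D and E are aspartic proteases, cathepsin A is a serine carboxypeptidase, and cathepsins B, C, H, K, L, S and Z are cysteine proteases of the papain family. Cathepsin E differs from the rest in being found in endosomes and other compartments outside the lysosome, and is known from stomach epithelium, red cells and antigen-presenting cells. In macrophages and dendritic cells the cathepsins cut proteins for display on MHC class II, and cathepsin S trims the invariant chain that blocks the class II groove.

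Values are FPKM (fragments mapped to a gene, corrected for its length and for the fragments mapped in the library), so that levels can be set side by side between genes. Libraries listed 12768 to 13327 genes each and summed to 510937 to 576313 FPKM. The macrophage markers fixed for this work (8 of 8 listed, among them Csf1r, Adgre1 and Lyz2) summed to 14190 to 16210 FPKM in Cd28 KO cells and 13400 to 14320 FPKM in WT cells. Cd28, the targeted gene, held 25.7, 24.2 and 26.9 FPKM in the Cd28 KO libraries and 38.2, 30.1 and 51.1 FPKM in the WT libraries. The groups did not overlap, as in 2.87% of all tested genes in that direction, and Cd28 was still listed in every Cd28 KO library. Cd28 was called in neither limma fit described below (adjusted p = 0.9995 without and 0.18 with a block for replicate number). The replicate 3 libraries, 1 of each genotype, differed from the rest. The 4 Y-linked genes examined were listed in both of them, at 1.97 to 39.1 FPKM, and in no replicate 1 or 2 library. In bulk RNA, fewer cells that express a gene and less of its RNA per cell cannot be told apart.

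The 250 bases before the start site are shown for 3 members, from RefSeq on GRCm38.p6, read 5′ to 3′ on the gene's strand. Ctsd was the most abundant cathepsin here, and Ctss and Ctsk are neighbours on chromosome 3, 17398 bases apart, with a high and a low level. Capitals mark CACGTG, the E-box at the core of the lysosomal CLEAR element, which TFEB binds, and GAGGAA, or its reverse complement TTCCTC, the core read by the macrophage factor PU.1.
Ctsd: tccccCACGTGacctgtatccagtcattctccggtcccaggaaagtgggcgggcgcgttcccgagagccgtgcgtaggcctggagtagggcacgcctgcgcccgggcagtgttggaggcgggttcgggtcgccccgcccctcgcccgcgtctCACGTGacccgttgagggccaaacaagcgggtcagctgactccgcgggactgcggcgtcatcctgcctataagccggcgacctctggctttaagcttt
Ctss: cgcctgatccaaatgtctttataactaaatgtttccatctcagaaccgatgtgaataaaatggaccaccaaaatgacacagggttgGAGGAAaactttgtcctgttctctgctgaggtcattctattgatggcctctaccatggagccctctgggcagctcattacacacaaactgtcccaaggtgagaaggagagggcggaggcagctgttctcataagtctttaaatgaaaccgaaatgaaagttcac
Ctsk: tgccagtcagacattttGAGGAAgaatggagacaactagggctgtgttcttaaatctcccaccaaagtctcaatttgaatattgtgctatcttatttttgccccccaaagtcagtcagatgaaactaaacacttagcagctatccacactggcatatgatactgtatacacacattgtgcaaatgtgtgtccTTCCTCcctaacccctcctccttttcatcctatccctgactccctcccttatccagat
They lie at chr7:142387828-142388077 on the minus strand (Ctsd), and at chr3:95526536-95526785 (Ctss) and chr3:95498960-95499209 (Ctsk) on the plus strand. The sequence of Ctsd held 2 E-boxes and no GAGGAA, while those of Ctss and Ctsk held GAGGAA and no E-box. RefSeq windows of 300 bases, from 250 before to 50 after a start site, were at hand for 7 members (8 windows, as Ctsa has 2 start sites). No window was at hand for Ctse, Ctsb and Ctsh, so motifs were not looked for in these genes. Read on both strands, CACGTG was in 3 of the 8 windows (Ctsa, Ctsd and Ctsl) and in 7.15% of all 32851 windows, and GAGGAA in 3 of 8 (Ctsc, Ctsk and Ctss) and in 28.3% of all. AGATAA, the letters that GATA factors read, was in 1 of 8 (Ctsz) and 11.2% of all. These matches are letters in a window and do not show binding.

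Ctse (Entrez 13034, chromosome 1, 131638314 to 131675507, plus strand, GRCm38) stood at 108, 129 and 143 FPKM in the Cd28 KO libraries, and at 3.66, 3.35 and 5.52 FPKM in the WT libraries. Every Cd28 KO library lay far above every WT library, with no overlap. Group means were 127 ± 17.5 FPKM for Cd28 KO against 4.18 ± 1.17 FPKM for WT (SD, n = 3 each), a ratio of 30.4, and the difference on the log2(FPKM + 1) scale was 4.64. Within each replicate number the ratio of Cd28 KO to WT was 29.6, 38.6 and 25.9. Of the 10172 tested genes, 0 had a larger difference on that scale. By level, Ctse ranked 721st, 584th and 567th of the 10172 tested genes in the Cd28 KO libraries, and 8337th, 8480th and 7240th in the WT libraries. In WT it was thus a gene of low but measurable level, listed in all 3 libraries.

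**Figure D1:**
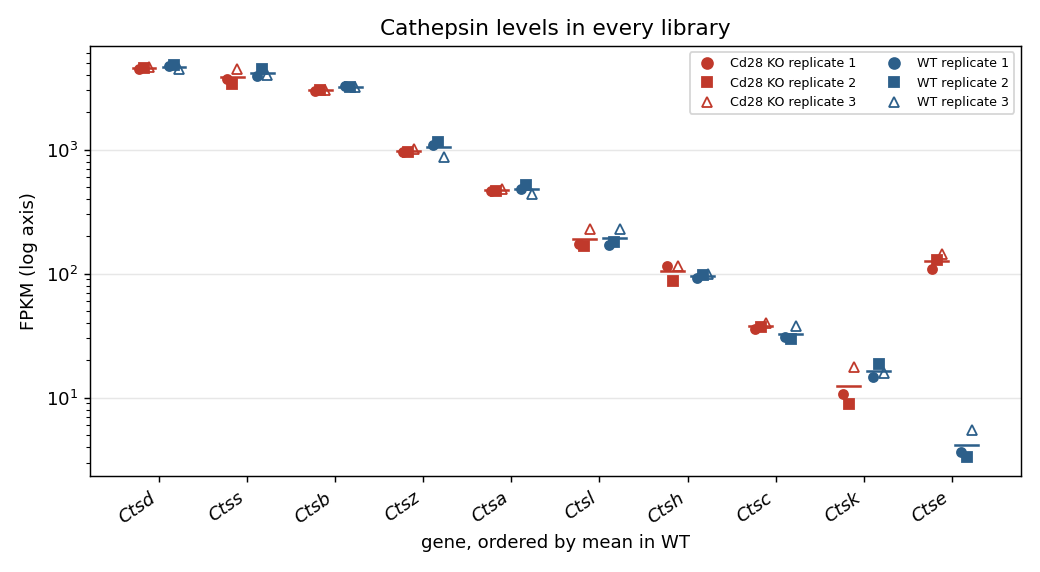
FPKM of the 10 cathepsins in each library, on a log axis, with Cd28 KO left of WT for each gene and a short line at each group mean (n = 3 each). The genes span from about 4.18 FPKM (Ctse in WT) to 4627 FPKM (Ctsd in WT), and Ctse is the gene whose groups separate widely, at 127 against 4.18 FPKM.

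The order of the family differed between the genotypes by the place of Ctse. In Cd28 KO the order by mean FPKM was Ctsd, Ctss, Ctsb, Ctsz, Ctsa, Ctsl, Ctse, Ctsh, Ctsc and Ctsk. In WT the same genes followed each other in the same order except for Ctse, which came last, below Ctsk. Ctse and Ctsh overlapped in Cd28 KO, at 108 to 143 and 87.9 to 115 FPKM, while in WT every Ctse value lay below the lowest Ctsk value of 14.8 FPKM. Ctsd and Ctss overlapped in both genotypes, and apart from these pairs no neighbours in the order did. The 10 genes together took 2.33% to 2.47% of the FPKM sum of a library in Cd28 KO and 2.57% to 2.70% in WT. Ctse made up 0.835% to 1.01% of that cathepsin sum in Cd28 KO and 0.0232% to 0.0416% in WT, so that even at its higher level it was a small part of the family's RNA. Cysteine cathepsins made up 59.8% to 62.8% of the sum in Cd28 KO and 62.5% to 63.4% in WT, and Ctsa 3.41% to 3.61% in Cd28 KO and 3.28% to 3.58% in WT.

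Differences of all genes were tested with limma on log2(FPKM + 1), over the 10172 genes that averaged at least 1 FPKM, and a gene counted as called when its Benjamini-Hochberg adjusted p was below 0.05. All 10 cathepsins passed this filter and exceeded 1 FPKM in every library. Of the 9 other than Ctse, limma called 0, where 0.0197% of all tested genes were called, with adjusted p = 0.9995 for each. In that fit 0 of the 9 had an unadjusted p below 0.05, as did 253 of the 10172 tested genes. A fit with a block for replicate number also gave 0 calls among the 9 (limma adjusted p from 0.63 to 0.99), where 0.177% of all tested genes were called, 0.138% higher and 0.0393% lower. With the block 1 of the 9, Ctsk, had an unadjusted p below 0.05. How many of all tested genes did so with the block was not counted, so this 1 of 9 has no background beside it. Over the 9, the log2 differences were positive for 2 and negative for 7, with a median of -0.02, against 0.00 (-0.0031) over all tested genes. Their median was -0.08 on the TPM scale (FPKM divided by its sum over the library), -0.09 with quantile normalization and -0.10 in replicates 1 and 2 alone, each again with 2 positive and 7 negative. Their median absolute difference was 0.09, the same to 2 decimals as the 0.09 of all tested genes. The ratio of group means lay between 0.76 for Ctsk and 1.15 for Ctsc. Without the block, the 95% intervals of the 9 log2 differences reached from -0.98 (Ctsk) to 0.49 (Ctsc), and each contained 0. With the block, the interval of Ctsk was -0.83 to -0.0049 and did not contain 0, while those of the others did.

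**Figure D2:**
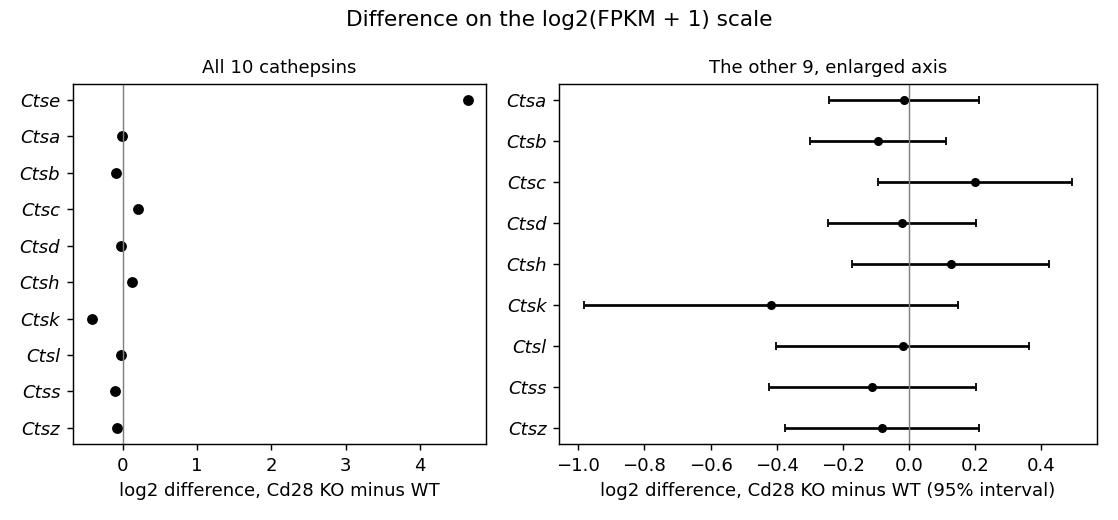
Difference of Cd28 KO minus WT on the log2(FPKM + 1) scale for all 10 cathepsins (left) and, on an enlarged axis with 95% limma intervals, for the 9 other than Ctse (right). Ctse stands at 4.64, and the others lie between -0.42 and 0.20 with intervals that contain 0. The intervals are from the fit without the block, and with the block that of Ctsk was -0.83 to -0.0049.

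Ctsd, the other aspartic cathepsin and the main acid endopeptidase of lysosomes (Entrez 13033, chromosome 7, 142375910 to 142387827), held 4442, 4561 and 4674 FPKM in Cd28 KO and 4690, 4765 and 4426 FPKM in WT. The groups overlapped, and both the lowest and the highest library were WT. Its means were 4559 ± 116 FPKM in Cd28 KO and 4627 ± 178 FPKM in WT (SD, n = 3 each), and its log2 difference was -0.02 with a 95% interval of -0.24 to 0.20. Ctse was 2.38% to 2.97% of the summed FPKM of both aspartic cathepsins in Cd28 KO and 0.0703% to 0.125% in WT. Ctsa, which besides cutting peptides protects the lysosomal enzymes beta-galactosidase and neuraminidase 1 from breakdown, held 466, 463 and 485 FPKM in Cd28 KO and 479, 518 and 435 FPKM in WT. Its Cd28 KO values lay inside the range of the WT values.

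Among the broad cysteine endopeptidases, Ctsb (chromosome 14, 63122462 to 63145923) was the 1 other member whose groups did not overlap. It held 2995, 3003 and 3037 FPKM in Cd28 KO and 3272, 3191 and 3187 FPKM in WT. Its ratio of means was 0.936 and its log2 difference was -0.09 ± 0.09 (SE), at a limma adjusted p of 0.9995 without and 0.94 with the block. Without overlap, 2.87% of all tested genes were lower and 3.84% higher in Cd28 KO, 6.71% in all, so 1 of 9 is near that background. Ctsl, which cuts many proteins in lysosomes and trims the invariant chain in thymic epithelium, held 174, 168 and 230 FPKM in Cd28 KO and 171, 179 and 227 FPKM in WT. Replicate 3 was the highest Ctsl library in both genotypes, and the groups overlapped throughout.

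Ctss, the cathepsin of antigen-presenting cells (chromosome 3, 95526786 to 95556405), held 3676, 3393 and 4474 FPKM in Cd28 KO and 3954, 4488 and 3958 FPKM in WT. Its groups overlapped, with a log2 difference of -0.11 and a 95% interval of -0.42 to 0.20. Ctsk, best known as the collagen-degrading protease of osteoclasts (chromosome 3, 95499210 to 95509387), held 10.8, 8.89 and 17.6 FPKM in Cd28 KO and 14.8, 18.6 and 15.8 FPKM in WT. The Cd28 KO libraries of replicates 1 and 2 lay below all WT libraries, and that of replicate 3 between WT values. The log2 difference of Ctsk was -0.42, with a 95% interval of -0.98 to 0.15 without and -0.83 to -0.0049 with the block. Leaving out 1 Cd28 KO library gave -0.22 (replicate 2 left out) and -0.68 (replicate 3 left out), against -0.70 in replicates 1 and 2 alone (limma adjusted p = 0.059). Ctss exceeded its chromosomal neighbour Ctsk 242-fold to 382-fold within a library. Beside Ctsk, the 7 listed of 9 osteoclast markers summed to 96.8 to 106 FPKM in Cd28 KO and 113 to 155 FPKM in WT. Calcr and Oscar, which mark mature osteoclasts, were at 0 in all libraries. Most of the sum was Atp6v0d2, with means of 55.0 FPKM in Cd28 KO and 77.4 FPKM in WT, and Nfatc1, with 24.1 and 21.9 FPKM. Nfatc1 and Mmp9 had the higher mean in Cd28 KO, and the other listed markers the lower. The part of osteoclasts in the Ctsk values was not tested.

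The remaining cysteine cathepsins trim proteins from their ends. Ctsc, the dipeptidyl peptidase that activates granule proteases of neutrophils, mast cells and cytotoxic lymphocytes, held 35.5, 37.4 and 39.8 FPKM in Cd28 KO and 30.8, 29.8 and 37.8 FPKM in WT. It had the highest ratio of the 9, 1.15, and the WT library of replicate 3 lay within the Cd28 KO values. Ctsh, an aminopeptidase, held 114, 87.9 and 115 FPKM in Cd28 KO and 92.6, 97.2 and 98.8 FPKM in WT, so both the highest and the lowest library were Cd28 KO. Ctsz, a carboxypeptidase, held 961, 955 and 1018 FPKM in Cd28 KO and 1095, 1160 and 875 FPKM in WT, with the Cd28 KO libraries inside the WT range. Targets of cathepsin C gave no values to compare: 3 of the 8 granule proteases on their list appeared in any library and none passed the filter.

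Set within replicate numbers, the 9 genes did not move one way. For 5 of them (Ctsa, Ctsd, Ctsk, Ctss and Ctsz) the ratio of Cd28 KO to WT was below 1 in replicates 1 and 2 and above 1 in replicate 3. Ctsk ran from 0.479 in replicate 2 to 1.12 in replicate 3, and Ctss from 0.756 to 1.13. Ctsb was below 1 at all 3 numbers (0.915, 0.941 and 0.953), and Ctsc above 1 at all 3 (1.16, 1.26 and 1.05). These ratios depend on the scale. The Cd28 KO library summed to 1.04, 0.970 and 1.13 times the FPKM of the WT library at numbers 1, 2 and 3, while the median ratio of single tested genes was 1.01, 1.03 and 0.962. On the TPM scale 2 of the 9, Ctss and Ctsz, were below 1 in replicates 1 and 2 and above 1 in replicate 3, at 1.00 and 1.03 there. On that scale 5 were below 1 at all 3 numbers, with Ctsa, Ctsd and Ctsk at 0.989, 0.936 and 0.990 in replicate 3, and 0 were above 1 at all 3, as Ctsc stood at 0.934 in replicate 3.

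**Figure D3:**
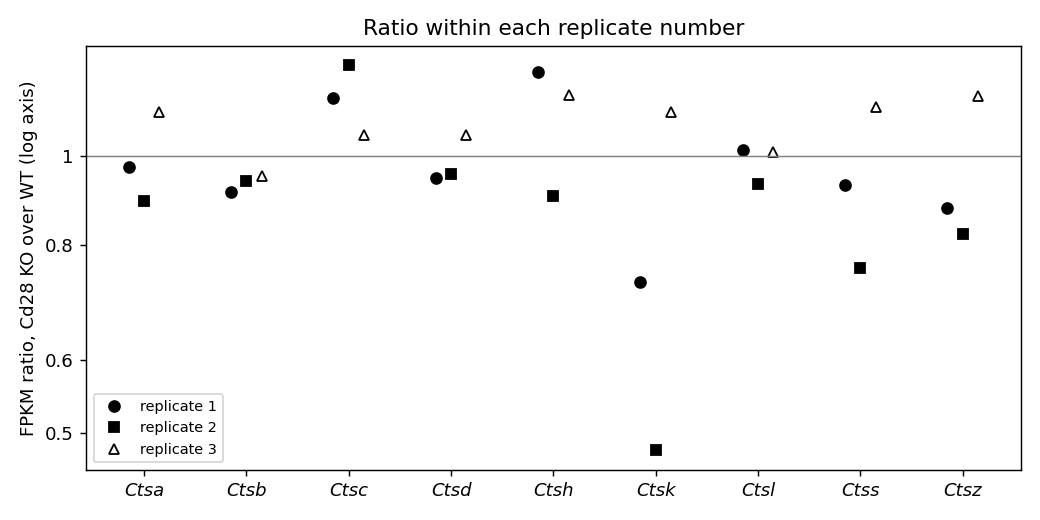
Ratio of FPKM in Cd28 KO over WT within each replicate number, on a log axis, for the 9 cathepsins other than Ctse (1 point per number). Points lie between 0.479 (Ctsk, replicate 2) and 1.26 (Ctsc, replicate 2), and in 5 genes the replicate 3 point lies above 1 while the other points lie below it, which on the TPM scale holds for 2 genes, Ctss and Ctsz.

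The replicate 3 libraries were compared with those of replicates 1 and 2 in the fit with genotype and replicate number, a comparison that the choice of Ctse did not use. Limma called 2 of the 10 cathepsins, both higher in replicate 3, against 30.4% of all tested genes called (9.73% higher and 20.6% lower). Ctsl averaged 228 FPKM in replicate 3 and 173 FPKM in replicates 1 and 2, with a log2 difference of 0.40 ± 0.10 (SE) and a limma adjusted p of 0.015. Ctse had a log2 difference of 0.40 ± 0.12 (SE), at a limma adjusted p of 0.030, and replicate 3 was its highest library in each genotype, at 143 FPKM in Cd28 KO and 5.52 FPKM in WT. The Ctse call did not hold on the TPM scale (limma adjusted p = 0.064), with quantile normalization (0.055) or with no filter (0.088), while that of Ctsl did. The donors' sex and anything else that sets these libraries apart cannot be told apart, and each genotype has 1 such library.

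The 5 genes whose log2(FPKM + 1) profile over the 6 libraries was most like that of Ctse by Pearson's r were Snx8 (0.99), Steap3 (0.99), B3gnt7 (0.99), H2az2 (0.98) and Rab4a (0.98). All 5 had their lowest Cd28 KO value above their highest WT value, as the large genotype step in Ctse requires of any gene ranked this way. Snx8, a sorting nexin of endosomes, held 98.6, 105 and 103 FPKM in Cd28 KO and 23.5, 22.1 and 21.4 FPKM in WT. Among the other cathepsins r with Ctse ran from -0.96 for Ctsb to 0.72 for Ctsc over the same 6 libraries. These libraries fall into 2 genotypes, so r mostly restates which group was higher, and no test is given for genes picked this way.

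Along chromosome 1, none of the tested genes next to Ctse was called higher in either fit, and the nearest, Rab7b, was lower in Cd28 KO in the fit with the block. Rab7b, which encodes a small GTPase of late endosomes and the Golgi, begins 13173 bases beyond the end of Ctse on the same strand (131688681 to 131715443). It held 29.9, 32.7 and 60.1 FPKM in Cd28 KO and 88.2, 95.8 and 163 FPKM in WT, and its highest Cd28 KO value lay below its lowest WT value. Its log2 difference was -1.49, at a limma adjusted p of 0.9995 without and 0.00011 with the replicate block. Within a library, Ctse stood at 3.62, 3.95 and 2.38 times Rab7b in Cd28 KO and at 0.0415, 0.0350 and 0.0338 times Rab7b in WT. Both genes were highest in replicate 3 of each genotype.

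On the other side, the nearest listed gene was Fam72a, which ends 99278 bases before Ctse and stood at 2.10 ± 0.557 FPKM in Cd28 KO and 1.72 ± 0.422 FPKM in WT (SD, n = 3 each). Srgap2 stood at 19.4 ± 4.56 FPKM in Cd28 KO and 15.3 ± 0.879 FPKM in WT, and Ikbke, a kinase of innate immune signalling, at 31.8 ± 6.64 FPKM in Cd28 KO and 24.0 ± 5.55 FPKM in WT (SD, n = 3 each). Rassf5, Eif2d, Slc41a1 and Rab29 had log2 differences from -0.11 to 0.08, and none of these 7 genes was called by limma in either fit. Slc26a9 and Pm20d1 did not exceed 0.06 FPKM in any library. Cd28 itself lies on the same chromosome, 70.9 Mb before Ctse, with 276 listed genes between them. Among these are Steap3 and B3gnt7, named above for profiles like that of Ctse. Steap3 held 71.6, 76.6 and 87.8 FPKM in Cd28 KO and 42.8, 42.1 and 45.5 FPKM in WT. B3gnt7 held 2.48, 2.80 and 2.81 FPKM in Cd28 KO and 0.33, 0.12 and 0.67 FPKM in WT. Genes of this stretch that are not named in the text are not reported here.

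**Figure D4:**
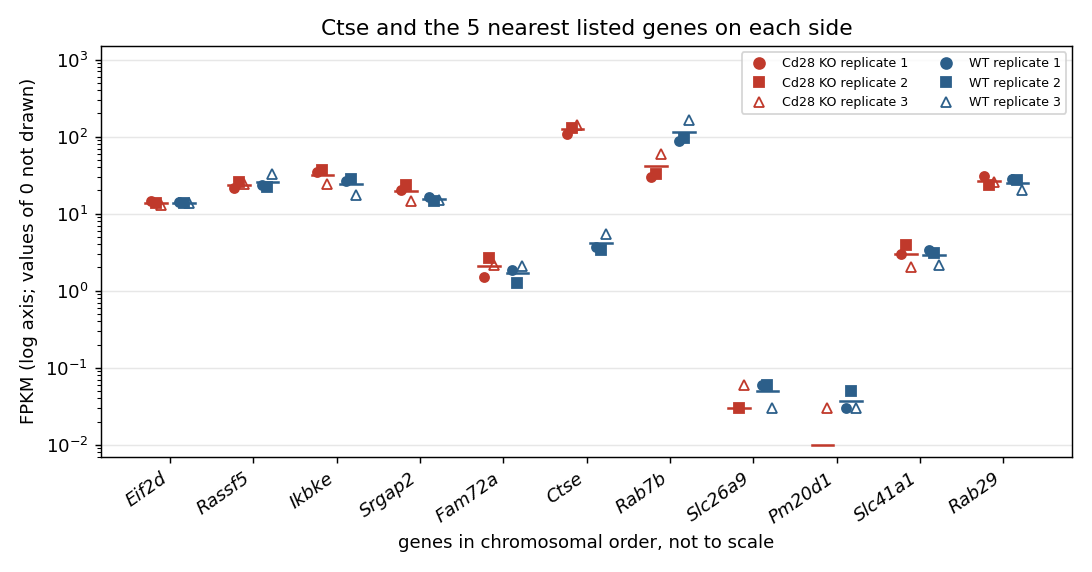
FPKM of Ctse and the 5 nearest listed genes on each side along chromosome 1, on a log axis, with Cd28 KO left of WT and a short line at each group mean (zeros count in the mean and have no point). Ctse is higher (127 against 4.18 FPKM) and the next gene, Rab7b, lower (40.9 against 116 FPKM) in Cd28 KO, while the groups of the other 9 genes overlap.

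Other genes of the cathepsin system were compared by lists, and limma called 0 members of any of these lists in either fit. Over all tested genes the share called was 0.0197% without and 0.177% with the block, so 0 calls in lists of this size are near that background. Of 13 further cathepsin genes, 5 were listed and 2 passed the filter. Ctsf stood at 3.93 ± 1.13 FPKM in Cd28 KO and 5.63 ± 1.20 FPKM in WT, and Ctso at 15.7 ± 0.716 FPKM in Cd28 KO and 14.2 ± 0.954 FPKM in WT (SD, n = 3 each). Ctsw, Ctsg and Cts8 did not exceed 0.22 FPKM, and the placental cathepsins Ctsj, Ctsm, Ctsq, Ctsr, Cts3, Cts6 and Cts7, with Ctsll3, were listed in no library.

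The inhibitors of cysteine cathepsins had 5 tested members, with a median log2 difference of 0.13, and all 5 were positive, though 4 of 5 were on the TPM scale and with quantile normalization. Cst3, the secreted cystatin C, stood at 2457 ± 271 FPKM in Cd28 KO and 2240 ± 128 FPKM in WT, and Cstb, the cytosolic stefin B, at 888 ± 165 FPKM in Cd28 KO and 828 ± 30.4 FPKM in WT (SD, n = 3 each). Ctla2b, an inhibitor that resembles a cathepsin propeptide, held 34.0, 29.1 and 42.9 FPKM in Cd28 KO and 24.2, 19.5 and 33.7 FPKM in WT, with overlap between the groups. Its copy Ctla2a stood at 9.92 ± 1.19 FPKM in Cd28 KO and 9.79 ± 1.02 FPKM in WT (SD, n = 3 each), and the split between such similar copies is uncertain. Of 4 tested serpins, Serpinb6a, whose human counterpart inhibits cathepsin G, stood at 423 ± 42.7 FPKM in Cd28 KO and 352 ± 29.2 FPKM in WT without overlap (SD, n = 3 each), at a limma adjusted p of 0.9995 and 0.56 with the block.

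Of 4 tested aspartic proteases other than cathepsins, 3 had a negative log2 difference, with a median of -0.15. Napsa, napsin A, stood at 66.6 ± 16.3 FPKM in Cd28 KO and 72.4 ± 2.05 FPKM in WT, and Psen2, a catalytic subunit of gamma-secretase, without overlap at 76.2 ± 3.55 FPKM in Cd28 KO and 87.8 ± 5.66 FPKM in WT (SD, n = 3 each). The stomach aspartic proteases Pgc, Pga5 and Cym were listed in no library. The 13 tested lysosomal enzymes and partners outside the family had a median of 0.02, with 7 positive and 6 negative, and of -0.04 on the TPM scale and -0.02 with quantile normalization, with 4 positive and 9 negative on both. Lgmn, the asparaginyl endopeptidase that processes several cathepsins, stood at 900 ± 105 FPKM in Cd28 KO and 880 ± 92.9 FPKM in WT, and Psap at 3885 ± 195 FPKM in Cd28 KO and 4475 ± 609 FPKM in WT (SD, n = 3 each).

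Genes that sort hydrolases to lysosomes (16 tested) had a median log2 difference of -0.02, with 4 positive and 12 negative. The split was 2 and 14 on the TPM scale (median -0.08), 5 and 11 with quantile normalization, and 8 and 8 in replicates 1 and 2 alone (median 0.02). M6pr, the cation-dependent mannose 6-phosphate receptor, stood at 137 ± 16.2 FPKM in Cd28 KO and 126 ± 18.9 FPKM in WT (SD, n = 3 each). Of 12 transcription factors linked to lysosomal or cathepsin genes, 11 were tested, with a median of 0.04 and 8 positive and 3 negative, against -0.02 with 5 and 6 on the TPM scale. Spi1, which encodes PU.1, stood at 388 ± 57.6 FPKM in Cd28 KO and 367 ± 3.03 FPKM in WT, and Tfe3 at 56.0 ± 10.3 FPKM in Cd28 KO and 63.1 ± 14.9 FPKM in WT (SD, n = 3 each). Of 7 tested genes of the invariant chain and class II loading, 5 were negative, with a median of -0.12. Cd74, the invariant chain that cathepsin S degrades, held 1674, 1715 and 1733 FPKM in Cd28 KO and 2005, 2633 and 1539 FPKM in WT, and the groups overlapped.

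Markers of other cell types besides osteoclasts, among them types known to carry cathepsin E, summed to no more than 8.31 FPKM in any library. S100a8, S100a9, Ccr7, Siglech and Kit passed the filter, with means over all libraries of 1.47 (Siglech) to 2.48 FPKM (Kit), and the rest of these markers did not. The 6 listed erythroid markers summed to 0.36 to 0.74 FPKM in Cd28 KO and 0.37 to 1.41 FPKM in WT. Dendritic cell markers (6 of 6 listed) summed to 3.44 to 4.84 FPKM in Cd28 KO and 2.59 to 5.07 FPKM in WT, and B cell markers (5 of 5) to 0.67 to 1.14 FPKM in Cd28 KO and 0.73 to 1.22 FPKM in WT. Epithelial and stromal markers (6 of 8) summed to 0.16 to 0.49 FPKM in Cd28 KO and 0.07 to 0.56 FPKM in WT, T cell markers (4 of 6) to 0.51 to 0.93 FPKM in Cd28 KO and 0.78 to 1.09 FPKM in WT, and neutrophil markers (7 of 7) to 3.70 to 8.31 FPKM in Cd28 KO and 2.15 to 6.18 FPKM in WT. The ranges of these sums overlapped between the genotypes, and the part of such cells in the Ctse values was not tested. The mast cell and basophil markers (4 of 6 listed) summed to 1.68 to 1.96 FPKM in Cd28 KO and 2.93 to 4.10 FPKM in WT, mostly through Kit, with Mcpt4 and Tpsb2 at 0, and their part in the cathepsin values was not tested.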

How the data were processed

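Per the submitters' processing notes, the authors used Bowtie and RSEM with genome build GRCm38, with no version or annotation named. The deposited values are FPKM, 1 per Entrez gene and library, in files that list only genes above 0, and a gene missing from a file was counted as 0. RSEM shares reads between similar sequences by estimation, which leaves near-identical copies uncertain. Read numbers per library are not known here, and no count test was run. Symbols and coordinates came from RefSeq for GRCm38.p6 (14551 of 14574 Entrez numbers matched) and strands from GENCODE.

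The fits used limma 3.58.1 (R 4.3.3, empirical Bayes with trend) on log2(FPKM + 1) over the 10172 genes that averaged at least 1 FPKM, with Benjamini-Hochberg adjustment, two-sided, without a block. Log2 differences understate the change of low genes, and other ratios are of mean FPKM. Intervals and SEs of Cd28 KO against WT came from the fit without a block, except where the block is named. A second fit used the replicate number as a block. Deviations of same-numbered libraries from their group means correlated across genes at 0.752, 0.505 and 0.783 for replicates 1, 2 and 3, all over 0.1. The second fit therefore took the libraries as paired by number, from the data alone. That replicate 3 stood apart in both groups raises the first 2 of these values too. Libraries of different number were not correlated, so the values do not show that 1 pairs with 1 and 2 with 2. The fits were also run on simulated data as a check of the code. No recovery is given here, so that run does not show how large a change the fit without a block can miss. Tables and plots were made with Matplotlib 3.10.9, NumPy 2.4.6 and pandas 2.3.3 under Python 3.11.15.

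The members, lists and tests were chosen with earlier results of these data known. Named genes were the members, up to 4 members of each list by mean FPKM and any called, the 5 listed genes nearest to Ctse on each side, and the 5 with the highest Pearson correlation with Ctse. Beyond these, list members near 0 and marker genes are named. The list of lysosomal enzymes also holds binding proteins and lipid and sugar hydrolases.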

Additional observations from a re-analysis of the deposited data

How the results depend on the processing

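Among 14 alternatives (pseudocount, filters, scaling, replicate terms and left-out libraries), the log2 difference of Ctse, which the choice of the gene fixed in direction, ranged from 4.53 to 4.92. Of the other 9, 6 kept their sign in all 14 and 0 were called in any. The filters and the replicate terms leave each log2 difference as it was, so only the other alternatives could change a sign. Leaving out 1 library at a time gave log2 differences of -0.0806 to 0.0455 for Ctsa (positive without WT replicate 2), -0.0527 to 0.00050 for Ctsd (positive without WT replicate 2) and -0.16 to 0.10 for Ctsl (positive without WT replicate 3 and without replicate 1 or 2 of Cd28 KO).

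Over all genes, limma called 2 higher and 0 lower without a block, where 253 had an unadjusted p below 0.05. It called 14 higher and 4 lower with the replicate block, 20 and 8 with a term for replicate 3, and 40 and 31 in replicates 1 and 2 alone, and 3 lower with no filter. For replicate 3 against replicates 1 and 2, 1 member was called in place of 2 with no filter, 1 on the TPM scale and 1 with quantile normalization. The causes were not tested. Apart from these counts and the Rab7b call given above, the block changed no call of a cathepsin, of a list member or of a gene near Ctse. With 3 libraries a group, the intervals given above set the precision of the fit they came from, mostly that without the block. The read depth behind each value is not known here.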
